A study of Mus musculus with 19 samples.

Results

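Mouse hepatic stellate cells (HSCs) that had spent 96 h in culture were compared over the whole transcriptome with freshly sorted HSCs that had never been plated. The comparison used 5 of the 19 libraries in the series, namely the 3 labelled 96 h and the 2 labelled 0 h. The mice behind both groups were uninjured Balb/c males, 23 to 24 weeks old, which carried no transgene and received no drug. The 0 h cells were lysed after sorting by the ultraviolet autofluorescence of stored vitamin A. The 96 h cells were sorted into collagen-coated wells and kept in DMEM with 10% fetal bovine serum, antibiotics and glutamine, with fresh medium after 3 h and 24 h. Plating, serum, the collagen coat and elapsed time all separate the groups, so their parts in any difference cannot be told apart. Each library pools 2 technical repeats. The labels carry the numbers M1, M2 and M3 and an isolation date, with M1 and M3 sharing one date and M2 holding another, and they do not say what the number stands for. The 96 h group holds M1, M2 and M3, and the 0 h group holds M2 and M3. Values are listed throughout in that order, M2 then M3 at 0 h and M1, M2 then M3 at 96 h. A pair of libraries at 24 h, M1 and M2, served as a waypoint in the same culture. The methods call the repeats of a time point independent but do not say that each came from its own animal, so p-values measure the spread between these libraries.

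HSCs are the vitamin A storing pericytes of the liver sinusoid. In the healthy liver they hold retinyl esters in lipid droplets and express a set of neural-type and receptor genes. After liver injury, or when plated on stiff plastic, they are known to lose these droplets and to turn into contractile, matrix-producing myofibroblasts. Serum-fed culture on plastic is the classical model of that change, and 96 h in it is commonly taken as an activated state.

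The libraries were made with a 3′ tag kit, which gives about 1 read per transcript, so read counts are not set by gene length. The 5 libraries held between 2073171 and 5906370 counts. Levels are given as counts per 1000000 counts of a library (CPM) after TMM scaling of library totals. Differences are log2 fold changes, 96 h minus 0 h, with standard errors (SE) from edgeR's quasi-likelihood fit of all 19 libraries, and p-values are adjusted by Benjamini-Hochberg over the 15138 genes that passed the filter on low counts. Genes count as called where the adjusted p lay below 0.1 and the fold change exceeded 2. At 3 counts per library, the smallest level that could be shown was 1.13 CPM on average at 0 h and 0.648 CPM at 96 h, and changes against libraries that all held 0 counts are lower bounds against that floor.

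The transcriptome differed widely between both states. Of the 15138 genes tested, 1644 were called, or 10.9% of all, with 882 higher at 96 h (5.83%) and 762 lower (5.03%). Counts of list members that rose or fell are to be read beside these shares. The gains were the more numerous and the losses the larger, since the median called loss was -2.77 on the log2 scale and the median called gain 1.87. A fold change above 4 was reached by 485 of the genes called lower and by 407 of those called higher. The median log2 fold change of all genes tested was 0.07. Among called genes, the libraries of both groups did not overlap in 1627 of 1644, whereas 6346 of all genes tested, or 41.9%, were apart in this way, 22.2% higher and 19.7% lower. In 1634 of the called genes the direction was the same within M2 and within M3. These numbers hold both 0 h libraries behind the calls, so this is no separate support for them. Which direction held the majority depended on the scaling of the libraries, with 53.6% of calls higher under TMM and 45.1% when DESeq2's size factors were put in the same fit. Leaving out the 0 h library M2 lowered the number of calls to 1043. Scaling by library totals alone gave 61.6% and moved the median of all genes from 0.07 to 0.22, so changes of small size are read against this shift of 0.15.

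**Figure D1:**
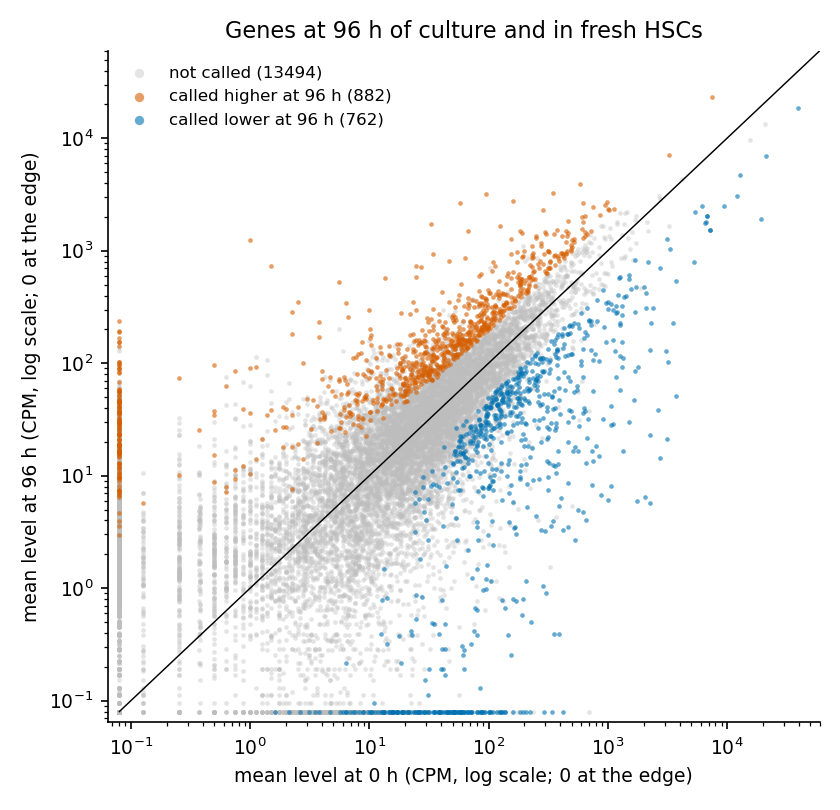
Mean level of each of the 15138 genes tested at 0 h (x axis, 2 libraries) and at 96 h (y axis, 3 libraries), in CPM on log axes, with genes at 0 drawn at the lower edge. Orange points are the 882 genes called higher at 96 h, blue points the 762 called lower, and grey points the genes not called; the diagonal marks equal levels.

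The fresh cells carried the defining transcripts of HSCs, and most of these were lower at 96 h. Of 14 HSC markers, 11 fell and none rose, and their summed level went from 31356 and 29704 CPM of library total, without TMM scaling, at 0 h to 3484, 3253 and 3029 at 96 h. The glial filament gene Gfap held 17.3 and 0 CPM at 0 h and was at 0 in the 3 cultured libraries, without a call. Des, the muscle-type filament desmin, held 125 and 120.01 CPM at 0 h and 148, 92.4 and 95.8 CPM at 96 h and was not called. Transcripts of other liver cells were present at 0 h as well. The 18 hepatocyte markers summed to 4532 and 9890 CPM at 0 h and to 139, 89.4 and 52.5 at 96 h, and 15 of them fell. Alb, serum albumin, was at 1813 and 4447 CPM at 0 h against 33.8, 21.8 and 8.09 CPM at 96 h. Markers of Kupffer cells and macrophages summed to 605 and 570 CPM at 0 h and to 33.3, 24.4 and 47.4 at 96 h, with 12 of the 17, Adgre1, Clec4f, Ptprc and the C1q chains among them, at 0 in the 3 cultured libraries. Sinusoidal endothelial markers went from 1574 and 1159 to 359, 50.3 and 43.5 CPM, so that the 96 h library M1 stood above the other cultured libraries. All 14 markers of lymphocytes and neutrophils were at 0 in all 5 libraries, and cholangiocyte markers stayed at or below 18.3 CPM. The markers of mesothelial cells and portal fibroblasts summed to 298 and 476 CPM at 0 h and to 35.4, 50.9 and 29.97 at 96 h, and none of the 14 rose. In bulk libraries, fewer cells of a type and less RNA per cell cannot be told apart, and this holds for each decline below.

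**Figure D2:**
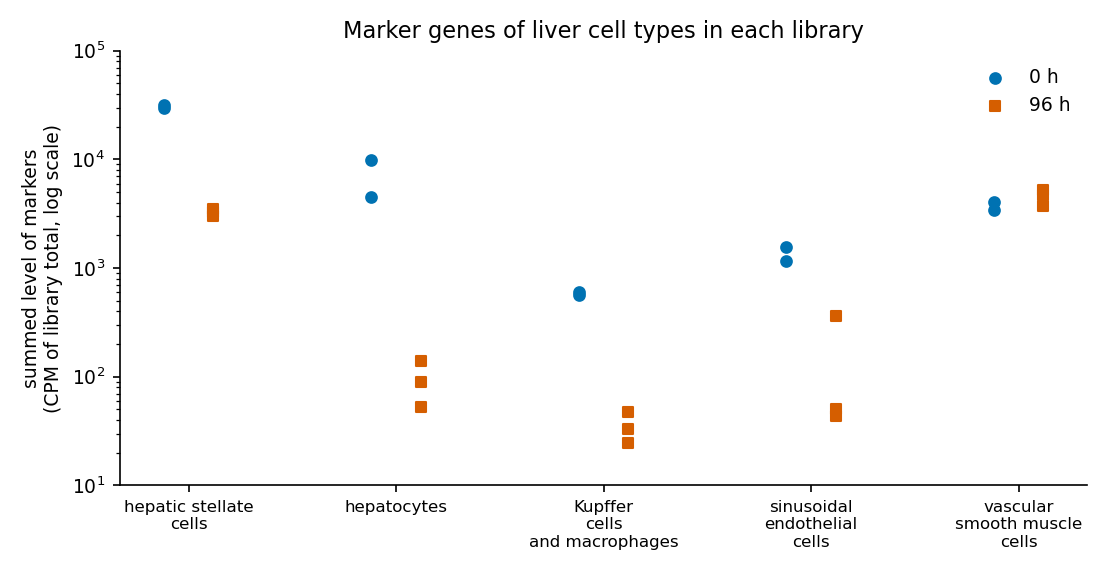
Summed level of the marker genes of 5 cell types in each library (y axis, CPM of library total, log scale), with circles for the 0 h and squares for the 96 h libraries. Hepatocyte, Kupffer cell and stellate cell markers all stand lower at 96 h than at 0 h, while vascular smooth muscle markers lie close together, with Rgs5 as most of their 0 h sum and the other 8 markers at 195.9 and 448 CPM at 0 h and 3696 to 5125 CPM at 96 h.

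The largest fitted gains came from genes with no count at 0 h, whose folds are lower bounds. Mmp10 and Mmp3, described below, had counts at 0 h and fitted folds of 980 and 608, above the bounds given here. The order of the largest gains is therefore not fixed. Among genes called higher, 118 were at 0 in both 0 h libraries, and 25 of these averaged at least 50 CPM at 96 h. Fhl2, a LIM-domain cofactor of focal adhesions and of transcription, stood at 163, 279 and 143 CPM at 96 h, at least 173-fold above the floor (adjusted p = 5.21e-06). Ptgs2, the inducible cyclooxygenase of prostaglandin synthesis, reached 93.5, 238 and 167 CPM (at least 147-fold, adjusted p = 0.0117). The epidermal growth factor receptor ligand betacellulin, Btc, reached 170.1, 158 and 138 CPM (at least 137-fold, adjusted p = 0.0481). All 3 genes gave no count in the fresh libraries and were present in every cultured one at 96 h. The metalloreductase Steap1 was at 146, 143 and 176 CPM, the secreted protease-like Prss35 at 149, 88.4 and 193 CPM, the orphan receptor Gprc5b at 121, 40.2 and 144 CPM and the calcium-binding protein S100a4, a mesenchymal marker, at 108, 98.7 and 71.6 CPM, with adjusted p-values from 0.00359 to 0.0697. Outside 96 h, Btc averaged at most 2.68 CPM, Prss35 0.429 CPM and S100a4 0.683 CPM. These 3 genes passed the filter on low counts through the 96 h group alone, so their p-values are no separate support. The mitochondrial RNA-binding protein gene Slirp reached 67.1, 83.5 and 145 CPM. The membrane protein gene Tmem147 reached 74.8, 105 and 108 CPM. Several of these calls did not pass in fits of fewer libraries. There, the fitted log2 fold changes of the genes named next moved by at most 0.37. These genes had no count at 0 h, so the size of the fitted values depends on the prior count. The small shifts therefore do not show that the changes are stable. With DESeq2, the calls of Btc, Prss35 and S100a4 were lost (adjusted p = 0.204, 0.211 and 0.249). The call of Btc was lost without any 1 of the 5 libraries (adjusted p up to 0.191) and with the replicate number as a block (adjusted p = 0.113), and that of S100a4 without any 1 of the 5 libraries (adjusted p up to 0.269). Calls were also lost for Gprc5b without 0 h M2, 0 h M3, 96 h M1 or 96 h M3 (adjusted p up to 0.242), for Prss35 without 0 h M2 or 0 h M3 (adjusted p up to 0.138), for Tmem147 without 0 h M2 or 0 h M3 (adjusted p up to 0.174) and for Ptgs2 without 0 h M2 (adjusted p = 0.115).

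3 further genes among the 12 largest fitted gains were housekeeping genes. Ppme1, a phosphatase methylesterase, was at 0 in both 0 h libraries and at 259, 174 and 278 CPM at 96 h, and Supt16, a histone chaperone subunit, was at 0 and at 97.2, 105 and 104 CPM. Both genes were present in each of the 17 cultured libraries of the series, from 3 h on. The alanyl-tRNA synthetase gene Aars was at 0 in both 0 h libraries and at 14.6, 180.2 and 378 CPM at 96 h, where M1 lay far below the others. Such jumps also occurred between libraries of 1 group, since 625 genes were at 0 in one 0 h library and at 20 CPM or more in the other, and 497 did the same among the 96 h libraries. Of the 1644 called genes, 103 were of that kind in one of these groups. Slirp and Tmem147, given above, already averaged 43.95 and 16.5 CPM at 3 h and 69.4 and 83.6 CPM at 24 h. Neither was called between 24 h and 96 h. Whether the gains of Ppme1, Supt16, Aars, Slirp and Tmem147 share a source with the jumps within groups was not tested.

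The largest fitted losses were led by an HSC receptor and by genes of hepatocytes, all at 0 in the 3 cultured libraries. Their folds are lower bounds too. Atf3, described below, kept a count at 96 h and had a fitted fold of 724, so the order of the largest losses is not fixed. Ngfr, the low-affinity nerve growth factor receptor that marks quiescent HSCs, went from 428 and 259 CPM to 0 in all 3 cultured libraries, at least 531-fold lower (adjusted p = 4.61e-06). The angiopoietin-like factor gene Angptl6 went from 343 and 236 CPM to 0 (at least 447-fold, adjusted p = 6.05e-05). Both were lost in every culture library at 96 h and 24 h. Lama1, the laminin alpha 1 chain, went from 177 and 189 CPM to 0 (at least 283-fold, adjusted p = 0.00561), and Clec3b, tetranectin, from 156 and 231 CPM to 0. The remaining protein genes of the 12 largest fitted losses were the major urinary proteins Mup2, Mup7 and Mup15, haptoglobin (Hp), Ambp and Selenbp1. All of these are made in quantity by hepatocytes. Mup2 stood at 387 and 455 CPM and Hp at 116 and 159.7 CPM at 0 h. The Mup genes are near-identical copies whose reads the counting may have split, and the hepatocyte marker sum given above fell with them, whose part was not tested. The unnamed transcripts Gm16192 and Gm26802 completed the 12, and Gm16192 can share reads with a gene on the other strand because the strand setting of the counting is not given in the sources used here. Gm26802 lost its call without 0 h M2 (adjusted p = 0.217). With DESeq2, Gm26802 lost its call as well (adjusted p = 0.16). It was at 0 at every other time of the series and so passed the filter on low counts through the 0 h group alone. Among genes called lower, 141 were at 0 in all 3 cultured libraries, 59 of which averaged at least 50 CPM at 0 h.

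Genes of the quiescent HSC programme were lower at 96 h. Of 41 genes of a list of quiescence and neural-type markers that were tested, 23 fell and 1 rose, with a median log2 fold change of -3.45, where 5.03% of all genes fell and their median was 0.07. Rgs5, a regulator of G-protein signalling in pericytes, stood at 4282 and 3133 CPM at 0 h and 48.8, 40.8 and 62.998 CPM at 96 h (log2 fold change -6.19 ± 0.23 SE, adjusted p = 2.64e-10). Colec11, a collectin of innate immunity made by HSCs, went from 2668 and 1867 to 6.88, 0.77 and 9.60 CPM (-8.62 ± 0.82, adjusted p = 4.18e-06). Dcn, the small proteoglycan decorin, went from 20177 and 18182 to 2118, 1964 and 1703 CPM (-3.31 ± 0.17, adjusted p = 4.44e-09). None of the 3 overlapped between groups, although the 96 h levels of Colec11 spread widely among themselves. Large losses were shared by Reln, the secreted guidance protein reelin (2382 and 2219.96 to 254, 193 and 234 CPM), by Hgf, the hepatocyte growth factor (1478 and 1056 to 110.1, 106 and 131 CPM), and by Ecm1, an extracellular matrix protein that restrains latent TGF-β (3122 and 3095 to 139.7, 135 and 111 CPM). Vipr1, the receptor of vasoactive intestinal peptide, fell from 2608 and 1905 to 28.96, 28.1 and 12.6 CPM. The HSC transcription factor gene Lhx2 fell from 537 and 391 to 93.8, 57.2 and 73.9 CPM and Cygb, the pericyte globin cytoglobin, from 1013 and 1129.8 to 45.3, 43.7 and 36.9 CPM. Cxcl12, the stromal chemokine, kept a higher level, at 3932 and 2771 CPM at 0 h and 919, 1148 and 1069 CPM at 96 h (-1.68 ± 0.20). The 1 gain in the list was the neurotrophin gene Bdnf, which rose from 3.26 and 10.04 to 245, 259 and 264 CPM (5.33 ± 0.60, adjusted p = 2.39e-05).

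Genes of vitamin A handling moved both ways. Of 19 tested, 5 fell and 2 rose, with a median of 0.87, which became 0 once the 5 members that were at 0 in all libraries of a group were set to their bounds. Lrat, the enzyme that esterifies retinol for storage, fell from 1074 and 735 CPM at 0 h to 28.1, 32.7 and 35.04 CPM at 96 h (-4.82 ± 0.86, adjusted p = 0.00144). Its level was lower in every cultured library at 96 h than in both fresh ones. The gains were Aldh1a1, a retinal dehydrogenase that makes retinoic acid, from 271 and 270.2 to 693, 846 and 907 CPM (1.59 ± 0.49, adjusted p = 0.055), and Bco1, which cleaves β-carotene into retinal, from 72.2 and 94.9 to 451, 792 and 551 CPM (2.84 ± 0.43, adjusted p = 0.000371). The calls of Lrat and Bco1 held without any 1 of the 5 libraries, whereas Aldh1a1 lost its call without 0 h M2, 0 h M3, 96 h M2 or 96 h M3 (adjusted p up to 0.257). Between 1 and 3 genes of the list fell in the fits without 1 library. Lipid droplet genes showed little net change, with 1 of 15 called in each direction and a median of -0.21. That is 6.7% each way, beside 5.83% higher and 5.03% lower of all genes. The fatty acid carrier Fabp5 rose from 7.02 and 13.1 to 163, 187 and 151 CPM, and G0s2, an inhibitor of triglyceride lipase, fell from 358 and 288 to 3.44, 26.4 and 8.93 CPM. The droplet coat gene Plin2 stood at 208 and 198 CPM at 0 h and 229, 283 and 287 CPM at 96 h and was not called.

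Genes of the contractile apparatus were higher at 96 h. Of 20 smooth muscle genes tested, 8 rose and none fell, with a median of 1.91. Acta2, α-smooth muscle actin and the standard marker of the myofibroblast, went from 51.7 and 138 CPM at 0 h to 3231, 2284 and 3992 CPM at 96 h (5.07 ± 0.53, adjusted p = 1.11e-05). Tpm1, a tropomyosin that lies along actin filaments, went from 211 and 359.5 to 2557, 2131 and 2204 CPM (3.01 ± 0.24, adjusted p = 7.43e-07), and Myl9, a regulatory myosin light chain, from 64.4 and 153 to 747, 788 and 838 CPM (2.87 ± 0.54, adjusted p = 0.00248). In each of these the lowest 96 h library stood well above the higher 0 h library. Tagln, the actin-binding protein SM22α, rose from 118 and 278 to 1028, 1044 and 934 CPM, Cnn2, a calponin, from 145 and 136 to 468, 635 and 401 CPM, and Cald1, caldesmon, from 881 and 1073 to 2679, 2989.6 and 2512 CPM. The myosin light chain kinase gene Mylk was not called, at 748 and 929.96 CPM at 0 h and 1262, 976 and 1029 CPM at 96 h. Vascular smooth muscle cells share this programme. Of their 9 markers, Acta2 and Tagln rose and Rgs5 fell, Cnn1 was at 0 in both 0 h libraries, and Notch3 was at 0 in all 3 at 96 h. Rgs5 made up most of their sum at 0 h. Without it, the other 8 summed to 195.9 and 448 CPM of library total at 0 h and to 4632, 3696 and 5125 at 96 h.

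Genes of the actin cytoskeleton and its anchors moved mostly upwards. Of 33 focal adhesion, actin and integrin genes, 10 rose and 3 fell, with a median of 0.82. Actb, cytoplasmic β-actin, went from 7169.7 and 7826 to 21858, 21819 and 26564 CPM (1.64 ± 0.15, adjusted p = 2.05e-06), and Actn1, the cross-linker α-actinin 1, from 210.4 and 480.05 to 2930.0, 3750.2 and 3189 CPM (3.25 ± 0.34, adjusted p = 9.78e-06). Actg1, cytoplasmic γ-actin, rose from 640.1 and 589 to 1600.2, 2119 and 1692 CPM. The 3 losses were integrin chains, with Itga1, a collagen receptor, at 1451 and 925 CPM at 0 h and 301, 291 and 266 CPM at 96 h, Itga9 at 665 and 490.1 and 183, 226 and 204 CPM, and Itgb8, an activator of latent TGF-β, at 23.8 and 8.03 CPM and 0. Itgb8 lost its call without 0 h M2, 96 h M2 or 96 h M3 (adjusted p up to 0.138) and with the block (adjusted p = 0.12). Tubulin and intermediate filament genes rose in 9 of 18 and fell in none, with a median of 1.46. The tubulin gene Tubb6 went from 39.1 and 42.2 to 425, 459.9 and 393 CPM and vimentin, Vim, from 371 and 524 to 900.5, 1154 and 734 CPM. Vim, close to the fold threshold, lost its call without 0 h M2 or 96 h M2 (adjusted p up to 0.397). With DESeq2 or its size factors, Vim was under the fold threshold, at 0.90. Tuba1a, Tuba1b and Tuba1c also rose, but they are close copies and their shares of reads are uncertain.

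**Figure D3:**
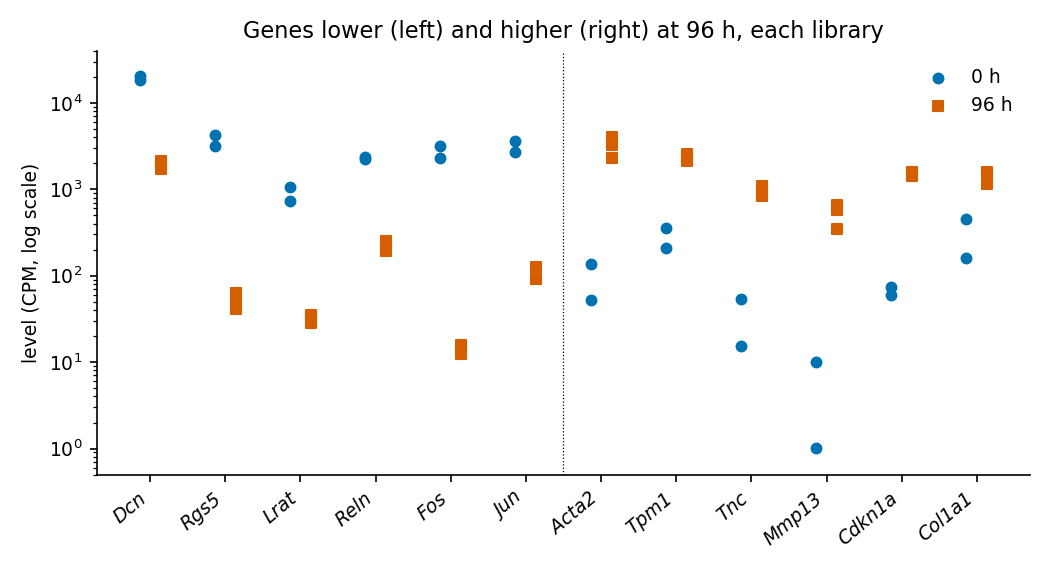
Level of 12 genes in each library (y axis, CPM, log scale, 0 drawn at the lower edge), with circles for the 2 libraries at 0 h and squares for the 3 at 96 h. The first 6 genes are quiescence or immediate early genes, all lower at 96 h, and the last 6 are contractile, matrix or cell cycle genes, all higher at 96 h, with no overlap of groups.

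Serum response factor is known to drive both contractile genes and immediate early genes through the CArG box, and that motif occurs in promoters of genes that moved in opposite directions here. The following promoter stretches show it, in capitals, 5′ to 3′ on the strand of the gene, from RefSeq on GRCm38.p6. Myl9, Cnn2 and Actg1 rose, whereas Egr2 and Zfp36, described below, fell.
Myl9 (chr2:156775283-156775332, plus strand): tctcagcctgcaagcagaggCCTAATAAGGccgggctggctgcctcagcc
Cnn2 (chr10:79988524-79988573, plus strand): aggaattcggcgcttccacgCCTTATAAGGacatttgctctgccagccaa
Actg1 (chr11:120348556-120348605, minus strand): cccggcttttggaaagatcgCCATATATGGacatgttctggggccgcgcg
Egr2 (chr10:67537777-67537826, plus strand): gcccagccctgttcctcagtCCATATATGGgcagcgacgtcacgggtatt
Zfp36 (chr7:28379257-28379306, minus strand): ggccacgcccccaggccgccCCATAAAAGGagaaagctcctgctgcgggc
The Actg1 and Egr2 boxes have the same 10 letters, although Actg1 rose and Egr2 was lost. The boxes were searched on both strands of windows from 250 bases before to 50 bases after each annotated start. They occurred in 1.28% of 12350 windows of all genes tested, in 3.13% of windows of genes called higher and in 2.59% of windows of genes called lower. The AP-1 site TGAGTCA, searched on both strands, was in 3.76% of all windows, in 7.07% of those called higher and in 5.18% of those called lower. A match describes letters in a window and does not show that a factor binds there.

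Matrix genes did not rise as a class. Of 23 interstitial collagens and fibril partners, 3 rose and 7 fell, with a median of -0.99. The gains were Col1a1, the α1 chain of type I collagen, from 161 and 447 CPM at 0 h to 1569.5, 1163 and 1502 CPM at 96 h (2.22 ± 0.40, adjusted p = 0.0015), Col5a2, a type V chain that seeds collagen fibrils, from 186 and 201 to 706, 1146 and 825 CPM, and Col8a1, a short-chain collagen, from 10.8 and 38.7 to 551, 548 and 656 CPM (4.58 ± 0.64, adjusted p = 0.000169). Col3a1, the type III chain, fell from 1932 and 2067 to 424, 486 and 530.4 CPM (-2.06 ± 0.35, adjusted p = 0.00104). Col14a1, a fibril-associated collagen, fell from 2452 and 2056 to 135, 129 and 133 CPM (-4.09 ± 0.25, adjusted p = 3.31e-08). The fibril-binding proteoglycan genes lumican, Lum (588 and 445 to 61.4, 53.3 and 50.9 CPM), and Prelp (1596 and 1838 to 588, 451 and 397 CPM) fell too. Col1a2, the partner chain of Col1a1, was not called, with 566 and 696 CPM at 0 h and 516, 382 and 491 CPM at 96 h, so the genes of both type I chains had different calls.

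Basement membrane genes were split, with 3 of 17 higher and 2 lower. Col4a1 and Col4a2, the common chains of type IV collagen, rose from 929 and 1093 to 2391, 2398 and 2273 CPM and from 406 and 518 to 1656, 1393 and 1255 CPM, while Lama1 was lost. Sparc, a collagen-binding matricellular protein, rose from 3163 and 3379 to 7247, 6552 and 7299.9 CPM (1.10 ± 0.15, adjusted p = 0.000164), and was under the fold threshold, at 0.96, with DESeq2 or its size factors. Enzymes that process and cross-link collagen rose in 5 of 25 and fell in 1, with a median of 0.64. Loxl2, a lysyl oxidase, rose from 187 and 281 to 839.7, 905 and 885 CPM (1.91 ± 0.25, adjusted p = 8.22e-05) and Lox, another, from 5.27 and 12.6 to 57.4, 108 and 76.5 CPM (3.18 ± 1.00, adjusted p = 0.063). Lox lost its call without 0 h M2, 0 h M3, 96 h M2 or 96 h M3 (adjusted p up to 0.373), and 2 genes of the list rose without 0 h M3 or 96 h M3 and 3 without 0 h M2. Among 17 matricellular genes 5 rose and 4 fell. Tnc, tenascin C of provisional matrix, went from 15.5 and 53.2 to 824, 902 and 1084 CPM (4.79 ± 0.57, adjusted p = 3.73e-05). Tgfbi, a TGF-β induced adhesion protein, went the other way, from 1567 and 1975 to 4.88, 1.54 and 11.3 CPM (-8.20 ± 0.53, adjusted p = 5.99e-08). Sparcl1, a relative of Sparc, fell from 900.4 and 575 to 11.5, 15.2 and 23.4 CPM.

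Matrix proteases and their inhibitors were among the larger gains. Of 25 tested, 8 rose and 3 fell, with a median of 0.91. The stromelysin gene Mmp10 went from 2.01 and 0 CPM at 0 h to 1124, 1233 and 1353 CPM at 96 h (9.94 ± 2.16, adjusted p = 0.00708), Mmp3, another stromelysin, from 0 and 3.01 to 617, 699.5 and 868 CPM (9.25 ± 1.95, adjusted p = 0.00566), and Mmp13, an interstitial collagenase, from 1.003 and 10.04 to 346, 661 and 569.8 CPM (6.71 ± 0.71, adjusted p = 1.27e-05). All 3 were low in both fresh libraries and high in each cultured one. Inhibitors rose as well, with Timp1 from 6.77 and 13.6 to 165, 169.6 and 264 CPM and Timp3 from 18.6 and 346 to 1540.3, 1578 and 1387 CPM. Reck, a membrane-bound inhibitor of metalloproteases, fell from 111 and 69.3 to 6.88, 7.89 and 4.88 CPM. Timp1 lost its call without 0 h M2, 0 h M3 or 96 h M3 (adjusted p up to 0.305), and Timp3 with only the 5 libraries of both groups (adjusted p = 0.15).

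**Figure D4:**
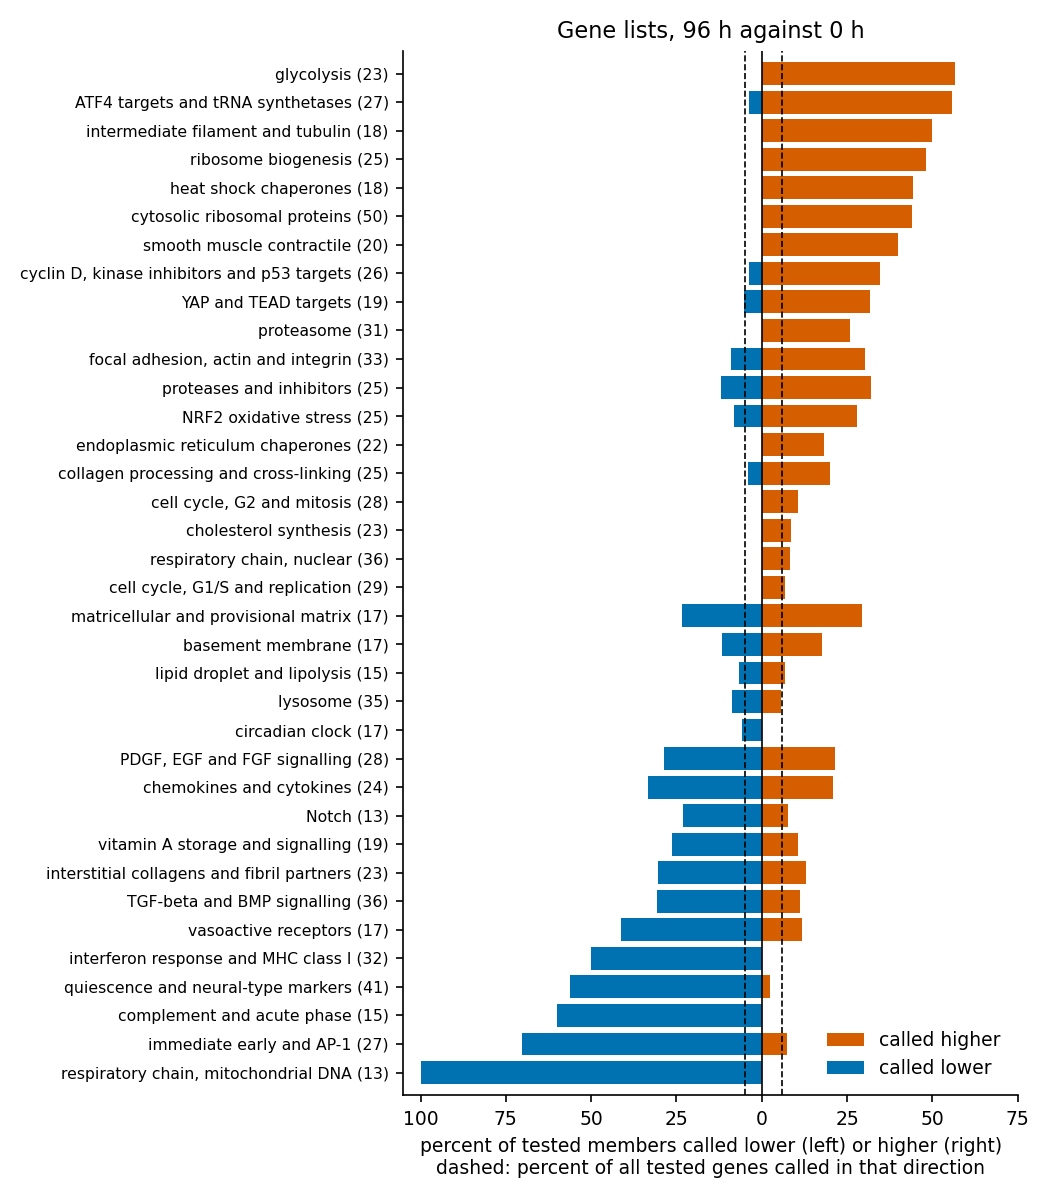
Percent of the tested members of each of 36 gene lists that were called higher (orange, to the right) or lower (blue, to the left) at 96 h than at 0 h, with the number of members tested after each name. Dashed lines mark the shares over all genes tested, 5.83% higher and 5.03% lower; the quiescence, immediate early, interferon, complement and mitochondrial DNA lists extend furthest to the left and the glycolysis, ATF4 and intermediate filament lists furthest to the right.

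Targets of YAP and TEAD, which read out cell spreading on stiff substrates, rose in 6 of 19 and fell in 1, with a median of 0.90. Ankrd1, a muscle ankyrin repeat protein, went from 7.52 and 58.2 to 1695, 2033 and 1408 CPM (5.75 ± 0.71, adjusted p = 5.73e-05). Ccn2, connective tissue growth factor, went from 114 and 384 to 1319.8, 1902 and 834 CPM (2.45 ± 0.46, adjusted p = 0.00224), and the receptor tyrosine kinase gene Axl from 193 and 266 to 999, 1082 and 1202 CPM. Ccn1, the other standard target of this family, was not called, at 590.5 and 297 CPM at 0 h and 543, 883 and 397 CPM at 96 h.

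Genes of growth factor signalling moved both ways. Of 28 PDGF, EGF and FGF genes, 6 rose and 8 fell. Ereg, the EGF receptor ligand epiregulin, went from 10.03 and 17.1 CPM at 0 h to 533, 523 and 661 CPM at 96 h (5.42 ± 0.31, adjusted p = 2.14e-08), and Hbegf, heparin-binding EGF, from 7.02 and 17.6 to 95.2, 59.3 and 76.8 CPM. Together with Btc these are 3 EGF receptor ligands, and the receptor gene Egfr itself rose from 52.4 and 52.7 to 119, 121 and 160.4 CPM. The PDGF receptors fell, with Pdgfra at 393 and 266 CPM at 0 h and 94.9, 92.2 and 79.7 CPM at 96 h and Pdgfrb at 542 and 466 and 189.8, 191 and 258 CPM (-1.24 ± 0.35, adjusted p = 0.0356). Fgfr2, a fibroblast growth factor receptor, fell further, from 1271 and 1416 to 91.2, 131 and 109.7 CPM (-3.60 ± 0.39, adjusted p = 1.56e-05). Pdgfrb lost its call without 0 h M2, 96 h M1 or 96 h M2 (adjusted p up to 0.205) and Egfr without 0 h M2 or 0 h M3 (adjusted p up to 0.151), and 5 of the list fell without 0 h M2.

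TGF-β and BMP genes fell in 11 of 36 and rose in 4, with a median of -0.89. The losses took in receptors, with Tgfbr1 at 58.4 and 48.2 CPM at 0 h and 12.6, 15.2 and 17.7 CPM at 96 h, Tgfbr2 at 141 and 148 and 36.1, 44.5 and 50.03 CPM, and the co-receptor Tgfbr3 at 459 and 416 and 65.1, 59.1 and 50.7 CPM. The latent TGF-β binding protein gene Ltbp4 went from 593 and 718 to 14.1, 15.98 and 8.76 CPM (-5.67 ± 0.34, adjusted p = 3.31e-08). Id3, a direct BMP target, fell from 2478 and 1722 to 401, 455 and 408 CPM. The gains included ligands, Tgfb3 from 9.78 and 11.05 to 157, 141 and 133 CPM (3.79 ± 0.70, adjusted p = 0.00208) and Inhba, an activin subunit, from 65.9 and 33.6 to 118, 156 and 150.1 CPM. Tgfbr1 lost its call without 0 h M2, 0 h M3, 96 h M1 or 96 h M2 (adjusted p up to 0.234), and Tgfbr2 without any 1 of the 5 libraries (adjusted p up to 0.251) and with the block (adjusted p = 0.105).

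Receptors for vasoactive signals, through which HSCs set sinusoidal tone, fell in 7 of 17 and rose in 2. Both endothelin receptor genes were lower, Ednra at 529 and 524 CPM at 0 h and 32.98, 13.3 and 7.75 CPM at 96 h (-4.88 ± 0.60, adjusted p = 5.4e-05) and Ednrb at 393 and 364 and 80.6, 56.6 and 86.2 CPM. The angiotensin receptor gene Agtr1a fell from 648 and 459 to 51.6, 58.9 and 63.8 CPM, and both subunits of the nitric oxide sensor guanylate cyclase, Gucy1a1 and Gucy1b1, fell to means of 135 and 104 CPM from 617 and 601 CPM. The gains were F2r, the thrombin receptor (253 and 322 to 705, 916 and 646 CPM), and the adrenergic receptor gene Adra1b (23.8 and 42.7 to 123, 115 and 172 CPM). F2r lost its call without 0 h M2 (adjusted p = 0.121). In the Notch pathway 3 of 13 fell (23.1%, beside 5.03% of all genes) and 1 rose (7.7%, beside 5.83%). Hes1, the Notch-responsive repressor, fell from 2584 and 2232 to 278, 277 and 376 CPM (-2.96 ± 0.40, adjusted p = 0.000139), while Rbpj, the DNA-binding subunit of the pathway, rose from 63.4 and 56.7 to 155, 178 and 198 CPM.

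Immediate early genes, which respond within minutes to growth factors, stress and tissue dissociation, stood high in the fresh cells and were low at 96 h. Of 27 tested, 19 fell and 2 rose, with a median of -3.95, or -3.83 with members at 0 set to their bounds. Fos, a subunit of AP-1, went from 3189 and 2287 CPM at 0 h to 14.6, 15.98 and 12.3 CPM at 96 h (-7.58 ± 0.42, adjusted p = 1.23e-08). Jun, its partner, went from 3651 and 2724 to 92.3, 90.5 and 126 CPM (-4.95 ± 0.24, adjusted p = 3.47e-09), and the stress-induced factor gene Atf3 from 456 and 247 to 0, 0 and 1.18 CPM (-9.50 ± 0.81, adjusted p = 1.29e-06). The fresh libraries stood high in all 3, so that each of these losses is measured from a high start. Egr2, a zinc finger factor, went from 102 and 58.8 CPM to 0 (at least 124-fold lower) and Zfp36, which destabilises cytokine mRNAs, from 632 and 489 to 11.2, 25.02 and 13.3 CPM (-5.08 ± 0.38). The exceptions were Ier3, which rose from 418 and 335 to 1616, 1335 and 1681 CPM (2.04 ± 0.40, adjusted p = 0.00354), and Maff, a small Maf factor, which rose from 50.1 and 17.1 to 85.2, 127 and 99.05 CPM. Maff lost its call without 0 h M3 (adjusted p = 0.106).

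Interferon response and MHC class I genes fell in 16 of 32, and none rose, with a median of -2.95. B2m, the light chain of MHC class I, went from 5672 and 4832 CPM at 0 h to 609.7, 1207 and 579 CPM at 96 h (-2.72 ± 0.31, adjusted p = 2.28e-05), H2-D1, a heavy chain, from 4104 and 3363 to 488, 605 and 513 CPM, and the regulator Irf1 from 983 and 602 to 25.8, 14.4 and 14.3 CPM (-5.45 ± 0.42, adjusted p = 4.51e-07). Heavy chain genes are close relatives and can share reads. Complement and acute phase genes fell in 9 of 15, and none rose, with a median of -5.12. Serping1, the C1 inhibitor, fell from 1119 and 1215 to 247, 220.4 and 377 CPM and C1ra, a C1 protease, from 523 and 467 to 44.7, 31.6 and 35.5 CPM. The hepatocyte and Kupffer cell marker sums fell over the same libraries, from between 4532 and 9890 CPM of library total to at most 139 and from between 570 and 605 CPM of library total to at most 47.4, and their part in these declines was not tested. Cytokines and chemokines were mixed, with 5 of 24 higher and 8 lower. Il1b, interleukin 1β of macrophages, went from 65.2 and 94.4 CPM to 0, Cxcl10, an interferon-induced chemokine, from 632 and 438 to 6.60, 0.77 and 0.674 CPM, and Ccl2, a monocyte attractant, from 220.2 and 154 to 78.6, 92.01 and 80.7 CPM. Csf1, the macrophage growth factor, rose from 113 and 271 to 1263, 1531 and 1479 CPM (2.90 ± 0.36, adjusted p = 5.95e-05), and Tnfrsf12a, the receptor of TWEAK, from 6.27 and 6.53 to 313, 363 and 353 CPM (5.74 ± 0.35, adjusted p = 4.26e-08). Ccl2 lost its call without 0 h M2 (adjusted p = 0.187) and Il1b without 0 h M2, 0 h M3, 96 h M2 or 96 h M3 (adjusted p up to 0.111), and the number of cytokine genes that rose was 3 without 0 h M3 and 2 without 0 h M2.

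Few cell cycle genes were called between 96 h and 0 h. Of 28 genes of G2 and mitosis, 3 rose, a share of 10.7% beside 5.83% of all genes, and none fell. Of these 28, 16 were apart between groups and higher, against 22.2% of all genes tested. The median was 8.56, or 3.27 with the 16 members that were at 0 in all libraries of a group set to their bounds. Plk1, the mitotic kinase, was at 0 in both 0 h libraries and at 45.9, 40.04 and 44.8 CPM at 96 h (at least 38.6-fold, adjusted p = 0.065). Tpx2, a spindle factor, was at 0 and at 37.9, 46.8 and 23.8 CPM, and the ubiquitin-conjugating enzyme gene Ube2c at 0 and at 26.7, 25.6 and 36.2 CPM. Plk1 and Ube2c were at 0 at every other time of the series, so both passed the filter on low counts through the 96 h group alone. Top2a, the topoisomerase of dividing cells, went from 10.03 and 36.2 to 163, 157 and 132 CPM without a call (adjusted p = 0.196). Among 29 genes of G1/S and replication 2 rose, Mcm3 and Mcm5, subunits of the replicative helicase, a share of 6.9% beside 5.83% of all genes. These lists moved with the libraries fitted, since with only the 5 libraries of both groups 13 genes of G2 and mitosis and 11 of G1/S were called higher. The calls were frail, since Plk1 lost its call without any 1 of the 5 libraries (adjusted p up to 0.231) and with the block (adjusted p = 0.212), Ube2c without any 1 of the 5 libraries (adjusted p up to 0.309) and with the block (adjusted p = 0.265), Tpx2 without 0 h M2, 0 h M3 or 96 h M2 (adjusted p up to 0.289), Mcm5 without any 1 of the 5 libraries (adjusted p up to 0.324), and Mcm3 without 0 h M2, 0 h M3, 96 h M1 or 96 h M2 (adjusted p up to 0.427) and with the block (adjusted p = 0.137). In these fits at most 1 gene of either list was called. With DESeq2, Plk1 and Ube2c lost their calls too (adjusted p = 0.322 and 0.364). The letters TTTGAA, the core of the cell cycle homology region, were found on either strand in 22 of 28 promoter windows of the G2 and mitosis list, or 78.6%, against 12.2% of all windows, 8.81% of those of genes called higher and 11.2% of those of genes called lower.

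Several brakes on the cell cycle were higher at 96 h. Cyclin D, kinase inhibitor and p53 target genes rose in 9 of 26 and fell in 1, with a median of 1.15. Cdkn1a, the p21 inhibitor of cyclin-dependent kinases, went from 74.2 and 59.3 CPM at 0 h to 1456, 1419.8 and 1602 CPM at 96 h (4.48 ± 0.35, adjusted p = 4.84e-07), and Cdkn2b, the p15 inhibitor, from 0 to 19.2, 35.996 and 24.9 CPM (at least 23.7-fold, adjusted p = 0.000667). Btg2, an antiproliferative p53 target that is also an immediate early gene, fell from 1693 and 915 to 74.8, 106 and 94.5 CPM.

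Of 23 genes of glycolysis and lactate transport, 13 rose and none fell, with log2 fold changes from -2.02 to 9.69 over the list and a median of 1.91. Gapdh went from 49.9 and 67.8 CPM at 0 h to 383, 668 and 461 CPM at 96 h (3.10 ± 0.40, adjusted p = 8.15e-05), Eno1, enolase, from 24.1 and 37.7 to 208, 237 and 253 CPM, and Ldha, which makes lactate, from 128 and 179.8 to 559, 636 and 536 CPM (1.91 ± 0.29, adjusted p = 0.000347). Pkm, pyruvate kinase, rose from 194 and 274 to 1094, 450.2 and 1315 CPM, with M2 as the lowest cultured library. Gapdh is often used as a reference gene, and its groups did not overlap here, with 96 h higher, as for 22.2% of all genes tested. Respiratory chain genes were listed by genome. All 13 protein genes of mitochondrial DNA fell, with a median of -1.73, for example mt-Nd4, a subunit of complex I, from 11922 and 12167 to 3701, 3309 and 2277 CPM (-1.96 ± 0.20, adjusted p = 6.92e-06), and mt-Cytb, of complex III, from 10497 and 8254 to 2724, 2587 and 2229.9 CPM. Of 36 nuclear genes of the chain, 3 rose, a share of 8.3% beside 5.83% of all genes, and none fell, with a median of 0.53. Mitochondrial DNA gave 13.98% and 12.7% of counts at 0 h and 6.09%, 5.54% and 5.75% at 96 h. A mitochondrial share is also a measure of RNA quality and cell stress, whose part was not tested. Of 23 cholesterol synthesis genes 2 rose, Sqle and Msmo1, a share of 8.7% beside 5.83% of all genes. Sqle lost its call without 0 h M2 or 0 h M3 (adjusted p up to 0.222) and Msmo1 without 0 h M2, 0 h M3 or 96 h M3 (adjusted p up to 0.272), and Pkm without 0 h M2 (adjusted p = 0.168). The number of nuclear respiratory genes that rose was 1 without 0 h M3 or 96 h M3, 1 with the block, and 0 without 0 h M2. Lysosomal genes moved little, with 2 of 35 higher (5.7%, beside 5.83% of all genes), 3 lower (8.6%, beside 5.03%) and a median of -0.10.

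Genes of protein synthesis and folding rose across several lists. Cytosolic ribosomal protein genes rose in 22 of 50 and fell in none, with a median of 0.92, and 45 of the 50 were apart between groups and higher, against 22.2% of all genes tested. Rplp0, a stalk protein, went from 251 and 303 CPM at 0 h to 1222, 1069.9 and 1214 CPM at 96 h (2.08 ± 0.19, adjusted p = 2.92e-06) and Rps2 from 95.3 and 69.8 to 374, 488 and 441 CPM. Ribosomal protein genes have many processed pseudogenes, between which reads can be split. Of 1281 pseudogenes tested, 57 rose (4.45%) and 17 fell (1.33%), both below the shares over all genes tested, 5.83% and 5.03%. The number of ribosomal protein genes that rose moved with scaling, to 29 with library totals alone and to 14 with DESeq2's size factors. Ribosome biogenesis genes rose in 12 of 25 and fell in none, with Ncl, nucleolin, from 306 and 322 to 818, 624 and 651 CPM (1.15 ± 0.18, adjusted p = 0.000565). Proteasome subunits rose in 8 of 31, or in 11 and 5 under these scalings, and heat shock chaperones in 8 of 18, and none fell in either list. Without 0 h M2, 2 proteasome, 4 heat shock and 7 ribosome biogenesis genes rose, and proteasome genes numbered 3 without 0 h M3 and 5 without 96 h M3. Cryab, the small heat shock protein αB-crystallin, went from 157 and 164 to 2444, 2389.8 and 3421 CPM (4.10 ± 0.47, adjusted p = 2.73e-05).

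ATF4 targets and tRNA synthetases, the amino acid response, rose in 15 of 27 and fell in 1, with a median of 1.76. Psat1, of serine synthesis, went from 1.003 and 6.53 to 169, 177 and 169.96 CPM (5.68 ± 0.84, adjusted p = 0.000273) and Nars, the asparaginyl-tRNA synthetase, from 90.02 and 151 to 458, 397 and 367 CPM. Ddit3, the stress factor CHOP, was the 1 loss, from 79.7 and 46.7 to 19.8, 12.9 and 11.1 CPM (-2.12 ± 0.38, adjusted p = 0.00157). NRF2 genes of oxidative stress rose in 7 of 25 and fell in 2. Hmox1, heme oxygenase 1, rose from 25.6 and 40.2 to 247, 302 and 198 CPM and Taldo1, of the pentose phosphate pathway, from 99.3 and 206 to 1272, 1277 and 1301 CPM (3.07 ± 0.34, adjusted p = 1.75e-05). The losses were the metallothioneins, Mt1 from 1031 and 659 to 105, 112 and 95.8 CPM and Mt2 from 645 and 321 to 51.6, 105 and 53.7 CPM. ER chaperones rose in 4 of 22, with Hspa5, the chaperone BiP, from 746 and 1296 to 2714, 1934 and 2233 CPM. Hspa5 lost its call without 0 h M2, 96 h M1 or 96 h M3 (adjusted p up to 0.473), and 1 of the list rose without 0 h M2 or 96 h M1 and 2 without 96 h M3. Of 17 circadian clock genes, 1 fell (5.9%, beside 5.03% of all genes), the repressor Bhlhe40, and none rose.

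The study also sorted HSCs from mice after 4 weeks of carbon tetrachloride (CCl4), a hepatotoxin that causes fibrosis, and from healthy mice, and listed the genes that differed. Those lists were taken by gene identifier only. By the methods, the healthy controls behind them were younger mice sequenced on another instrument than the cultures, so the 0 h libraries are not among them. Of the genes higher after CCl4, 493 of 796 could be tested here. At 96 h 130 rose (26.4%, beside 5.83% of all genes tested) and 14 fell (2.8%, beside 5.03%). The median was 2.17, or 1.66 with the 189 members that were at 0 in all libraries of a group set to their bounds. These values cover only members that passed the filter on low counts, which a gene can pass through the cultured libraries alone. Fhl2, Ptgs2, Btc, Steap1, Prss35, Gprc5b and S100a4, all at 0 in fresh cells, belong to this list. The 14 losses included Col3a1 and Col6a3, a type VI collagen chain, which stood at 242 and 434 CPM at 0 h and 91.5, 16.4 and 42.6 CPM at 96 h, together with Il1b and Cxcl2. Of the genes listed as higher in healthy mice than after CCl4 and after recovery from it, 657 of 722 could be tested. Of these, 120 fell (18.3%, beside 5.03% of all genes tested) and 10 rose (1.5%, beside 5.83%), with a median of -0.94. The 10 gains included Bco1, Adra1b and Gper1, a membrane oestrogen receptor. Gper1 went from 0 and 2.01 CPM at 0 h to 119, 68.5 and 82.2 CPM at 96 h. It averaged at most 1.004 CPM at every other time and so passed the filter through the 96 h group alone. Gper1 lost its call without 0 h M2, 96 h M1, 96 h M2 or 96 h M3 (adjusted p up to 0.267) and Col6a3 without 0 h M2, 0 h M3, 96 h M2 or 96 h M3 (adjusted p up to 0.341).

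The 24 h libraries show where 96 h differed from the nearest earlier time. Between 24 h and 96 h, 411 genes were called, 2.72% of those tested, with 207 higher (1.37%) and 204 lower (1.35%) at 96 h. Counts of list members against 24 h are to be read beside these shares. The number fell to 270 without 24 h M1 and to 124 without 24 h M2. Of 23 interstitial collagens and fibril partners, 10 were higher at 96 h than at 24 h and none was lower. Col3a1 stood at 109 and 64.3 CPM in M1 and M2 at 24 h, below both the 0 h libraries and the 424, 486 and 530.4 CPM of 96 h (96 h against 24 h 2.48 ± 0.39, adjusted p = 0.00255). Col1a2 stood at 82.2 and 86.3 CPM at 24 h (2.46 ± 0.40, adjusted p = 0.00313), and Prelp at 89.3 and 38.4 CPM (2.91 ± 0.41, adjusted p = 0.000731). For these 3 genes the level at 24 h lay below every library at 0 h and 96 h. Col1a1 was at 334 and 219.6 CPM at 24 h, within the range of 0 h, and was higher at 96 h (2.35 ± 0.40, adjusted p = 0.004).

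**Figure D5:**
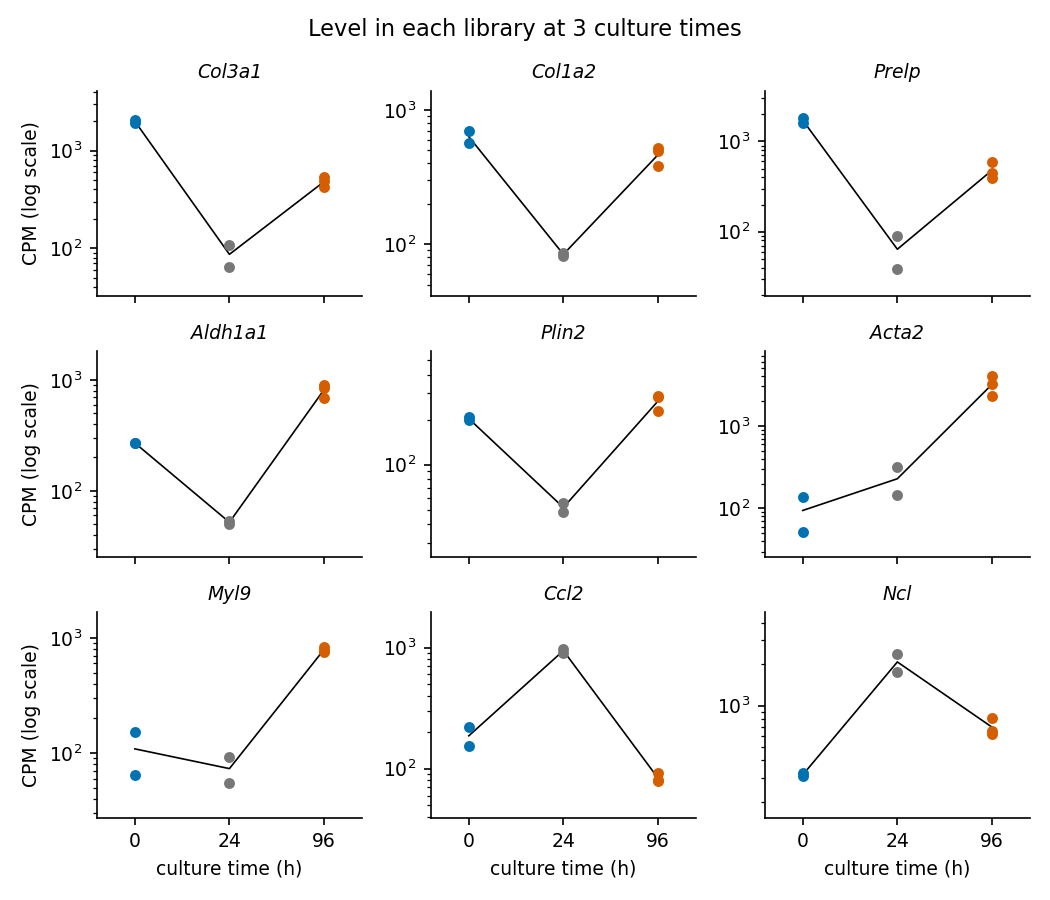
Level of 9 genes in each library at 0, 24 and 96 h (x axis, 3 time points equally spaced; y axis, CPM, log scale), with points for libraries and lines through the means. Col3a1, Col1a2, Prelp, Aldh1a1 and Plin2 dip at 24 h and are higher again at 96 h, Acta2 and Myl9 rise between 24 h and 96 h, and Ccl2 and Ncl peak at 24 h among these 3 times.

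Of 20 smooth muscle genes, 4 were higher at 96 h than at 24 h and none was lower. Acta2 was at 314 and 144 CPM at 24 h and rose between 24 h and 96 h (3.79 ± 0.49, adjusted p = 0.00045), Myl9 was at 91.6 and 54.6 CPM (3.44 ± 0.56, adjusted p = 0.00312), while Mylk, at 255 and 230.1 CPM at 24 h, was lowest at that time (2.17 ± 0.30, adjusted p = 0.000688). Tagln had already reached 859 and 978 CPM by 24 h and was not called between 24 h and 96 h, and Tpm1, Cnn2, Cald1, Actn1, Tnc and Ankrd1 were not called either. A vitamin A gene and a lipid droplet gene were lowest at 24 h among these 3 times, with Aldh1a1 at 50.6 and 53.6 CPM at 24 h (3.97 ± 0.55, adjusted p = 0.000738) and Plin2 at 48.1 and 55.1 CPM (2.37 ± 0.51, adjusted p = 0.0206). Lrat was not called between these times.

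Several stress and inflammatory gains of early culture had receded by 96 h. Ccl2 was at 982 and 905 CPM at 24 h, above both other times (-3.49 ± 0.30 for 96 h against 24 h, adjusted p = 1.71e-05), and 7 of the 24 cytokine and chemokine genes were lower at 96 h than at 24 h with none higher. Of the ATF4 list 7 of 27, and of the ribosome biogenesis list 8 of 25, were lower at 96 h than at 24 h, and none was higher. Ncl, at 1761 and 2383 CPM at 24 h, stayed above its 0 h level at 96 h. Interferon and MHC class I genes went on falling, with 9 of 32 lower at 96 h than at 24 h and none higher. The 24 h group has no M3 library. Within M1 and within M2, the change from 24 h to 96 h had the direction of the fit for Col3a1, Acta2, Ccl2 and Ncl, although these libraries also gave the calls.

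By class of transcript, 810 of 11850 protein-coding genes tested rose and 687 fell, while of 1755 long non-coding and unconfirmed transcripts 14 rose and 36 fell. The share of counts in protein-coding genes went from 78.1% and 79.7% at 0 h to 87.9%, 88.5% and 88.0% at 96 h.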

How the data were processed

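HSC libraries were made with the QuantSeq 3′ FWD kit and sequenced by the authors, who aligned reads with STAR to mm10 (GRCm38.p6) and used StringTie, per the labels and methods. The deposited table holds raw counts per gene. The counting tool, strand setting and annotation release are not given in the sources used here. All 55487 gene identifiers were read, symbols of 55227 were taken from GENCODE vM21, and 23696 had a count in any library. Library totals over the series ran from 2073171 to 7690892.

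Counts of all 19 libraries in 7 time groups were fitted together in edgeR 4.0.16 (R 4.3.3, limma 3.58.1) with filterByExpr, TMM scaling, the quasi-likelihood F test and no covariate, so that the pair of 0 h libraries shared the spread of all groups. Adjusted p-values are Benjamini-Hochberg over all genes tested. No gene list was tested as a set. Counting floors cover counting error only. The fit was tested on simulated data for 96 h against 0 h with 14249 genes, where it recovered 34 of 100 genes changed 4-fold and 49 of 100 changed 16-fold, with 2 false calls.

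The members of the comparison and the 36 gene lists (963 names, 873 tested) were chosen with earlier results of these data known. Genes were named by rule: the 12 called genes with the largest change in each direction that averaged at least 50 CPM in the higher group and did not overlap between groups, the 4 most abundant and up to 3 most changed called members of each list in either direction, and the cell type markers. Actg1, Ccl2, Cnn2, Col1a2, Col6a3, Cxcl2, Ednrb, Egfr, Gper1, Lum, Pdgfra, Prelp, Tgfbr1, Tgfbr2, Timp1, Vipr1 and Zfp36 fell outside it and were chosen after their values were seen, and only some of the genes the rule gave are printed. Alternatives were library totals or DESeq2 size factors in place of TMM, DESeq2 1.42.0, no filter, fewer libraries, a replicate block, isolation date, thinning to the smallest total, a stricter threshold and leaving out each library. Figures were drawn with matplotlib 3.10.9 in Python 3.11.15.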

Additional observations from a re-analysis of the deposited data

Results flagged for a closer look

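For 50 of the genes named above, the change by 96 h differed from the change by 24 h, that is, edgeR's quasi-likelihood test called 96 h against 24 h, with adjusted p-values from 1.71e-05 to 0.0955. In all 50 the direction was the same within M1 and within M2, which hold the 24 h libraries behind these calls, so this is no separate support. Values are log2 differences, 96 h minus 24 h. They were higher at 96 h for 32 genes, of which 10 nevertheless stood below fresh cells, and lower for 18, of which 4 (Ccn2, Hmox1, Inhba and Ncl) still stood above fresh cells.

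Among matrix genes the difference was 2.48 for Col3a1, 2.46 for Col1a2, 2.35 for Col1a1, 3.44 for Col8a1, 1.28 for Col14a1, 2.20 for Lum, 2.91 for Prelp, 1.52 for Sparc and 2.81 for the collagenase Mmp13. Among contractile, adhesion and tubulin genes it was 3.79 for Acta2, 3.44 for Myl9, 2.17 for Mylk, 2.89 for Fhl2, 1.27 for Itga1, 1.86 for Tuba1a and 1.53 for Tuba1b. Vitamin A and lipid genes gave 3.97 for Aldh1a1, 2.56 for Bco1, 2.37 for Plin2 and 2.45 for Fabp5. Receptor and signalling genes gave 2.04 for Agtr1a, 1.83 for F2r, 9.83 for Gper1, 1.07 for Hgf and 1.22 for Id3, and the complement inhibitor gene Serping1 gave 1.83. Gper1 was at 0 and 0.129 CPM at 24 h, so that its fitted value depends on the prior count. The remaining gains were 2.57 for Fos, 2.99 for Ier3, 1.33 for Gapdh, 1.56 for Ldha, 4.67 for Top2a and 3.26 for Cryab. Fos was at 2.15 and 2.57 CPM at 24 h and at 14.6, 15.98 and 12.3 CPM at 96 h, both far below fresh cells.

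Inflammatory and interferon genes were lower at 96 h than at 24 h, by -6.23 for Cxcl2, -3.49 for Ccl2, -2.24 for Cxcl12, -1.36 for Irf1, -1.15 for B2m and -1.37 for H2-D1. Stress and immediate early genes gave -6.82 for Atf3, -1.60 for Jun, -1.94 for Ddit3, -1.24 for Hmox1, -1.68 for Mt1 and -3.11 for Mt2. TGF-β pathway and matricellular genes gave -2.55 for Tgfbi, -3.09 for Ltbp4, -1.59 for Inhba and -2.25 for Ccn2. Rgs5 gave -1.77 and Ncl -1.57.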

How the results depend on the processing

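Leaving out 1 library moved the number of genes called between 96 h and 0 h from 1644 to between 1043 and 1376, and 711 of the 1644 were called in each of the 5 fits. Between 96 h and 24 h the number went from 411 to between 124 and 347 in such fits, to 273 at an adjusted p below 0.05, to 844 with DESeq2 and to 643 with only the 24 h and 96 h libraries. The share of calls that were higher went from 53.6% to 45.1% with DESeq2 size factors, which turned the majority. Des, not called, turned from -0.13 to 0.02 on the log2 scale with library totals alone. The cause of these shifts was not tested, apart from the smaller number of libraries or the stricter threshold itself. For 96 h against 0 h the other fits gave 1721 calls with library totals, 1614 with DESeq2 size factors, 2378 with DESeq2 (1510 of them shared with the 1644), 1444 without the filter, 2298 with only the 5 libraries, 1585 with isolation date, 1833 after thinning, 1237 at an adjusted p below 0.05 and 1874 without genes at 0 in one library and at 20 CPM or more in another of the same group, a setting added once the data had been seen. The counts over all 36 lists together, 186 higher and 149 lower, stayed within 1.5 times in every fit.

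With the replicate number as a block the number of calls was 1519, of which 1413 were shared with the 1644, and 426 between 96 h and 24 h. Residuals from the group means correlated at 0.0143 on average between libraries with the same number (51 pairs). Those with different numbers gave -0.00704 (103 pairs), and the 0 h and 96 h libraries gave -0.0134 in M2 and -0.0135 in M3. Residuals cancel within each group, which ties these averages to each other, so they cannot show whether the numbers pair the libraries. The block changed the calls of 6 of the 153 called genes named above, and DESeq2 those of 8, each given there. Of 72 list counts, 4 moved by over 1.5 times with the block, 11 with DESeq2, 14 with only the 5 libraries and 17 without 0 h M2.

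Thinning all libraries to the smallest total did not lower the number of calls. The self-test recovered 34 of 100 simulated 4-fold changes, so a gene that was not called is not shown to be unchanged. Of the 153 called genes named above, 120 kept their call and direction in every fit that gave an adjusted p and 31 lost it in at least 1 fit without a library, which leaves Timp3 and Sparc, whose losses are given above.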
